A study of Mus musculus with 6 samples.

Results

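The genes described here are 8 components of the Polycomb system and its opposing enzymes: Ezh2, Ezh1, Eed, Suz12, Jarid2, Mtf2, Kdm6a and Kdm6b. They were taken by symbol from the 31053 gene rows of the deposited matrices, and each symbol matched 1 row in each of 6 libraries. Mouse embryonic stem cells (ESC) labelled Parental or Oct1_cKO (written cKO here, for conditional knockout of Oct1, the POU factor encoded by Pou2f1) were measured cell by cell with droplet-based RNA sequencing, with 1 library for each genotype as undifferentiated ESC, at day 3 and at day 6. Per the study's design text the cells were differentiated towards mesoderm on gelatin, for 2 days in N2B27 medium with Bmp4 and then for 4 days in a DMEM-based medium with Rspo3 and LDN-193189, which blocks BMP receptors. The Cre driver, the number of clones and the deleted part of Pou2f1 are not given in the sources used here. The series title asks how Oct1 acts with Smad factors in mesoderm specification.

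Polycomb repressive complex 2 (PRC2) methylates lysine 27 of histone H3 (H3K27). Its core holds a methyltransferase, Ezh2 or Ezh1, with Eed, which binds the finished mark, and Suz12, which holds the complex together. Jarid2 and Mtf2 are accessory subunits that help bring PRC2 to CpG-rich promoters, and Kdm6a (Utx) and Kdm6b (Jmjd3) remove the mark. In ESC the mark covers many developmental genes that are kept silent but ready for lineage entry, and H3K27 demethylases have been reported to work with Oct1 on such poised genes. Ezh2 is known for high levels in dividing cells, where E2F factors act on its promoter, while Ezh1 is known for its presence in cells that have stopped dividing.

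The promoter windows of Ezh2, Ezh1 and Suz12 are shown because the levels of these genes are set against cell cycle genes and against their chromosomes below. They come from RefSeq on GRCm38.p6, in which 7 of the 8 members had an entry (not Kdm6b), and run 5′ to 3′ on the gene's strand from 250 bases before the start to 50 after it. Capitals mark matches to 4 E2F-type strings, TTTGGCGC, TTTCCCGC, TTTGCCGC and TTTCGCGC, searched on both strands. The Ezh2 window lies at chr6:47594981-47595280 on the minus strand, the Ezh1 window at chr11:101226414-101226713 on the minus strand, and the Suz12 window at chr11:79992856-79993155 on the plus strand.
Ezh2: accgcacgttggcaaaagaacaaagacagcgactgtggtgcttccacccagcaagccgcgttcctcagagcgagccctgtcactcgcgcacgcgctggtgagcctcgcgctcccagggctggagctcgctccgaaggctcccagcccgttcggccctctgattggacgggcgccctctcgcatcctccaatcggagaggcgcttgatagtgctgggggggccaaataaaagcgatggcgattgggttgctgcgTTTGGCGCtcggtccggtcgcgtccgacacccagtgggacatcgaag
Ezh1: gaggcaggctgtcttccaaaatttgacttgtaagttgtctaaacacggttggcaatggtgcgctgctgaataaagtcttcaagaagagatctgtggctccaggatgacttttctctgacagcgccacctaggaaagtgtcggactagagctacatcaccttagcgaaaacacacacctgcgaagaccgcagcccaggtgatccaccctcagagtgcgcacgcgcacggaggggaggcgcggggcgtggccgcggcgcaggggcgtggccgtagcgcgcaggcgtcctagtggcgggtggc
Suz12: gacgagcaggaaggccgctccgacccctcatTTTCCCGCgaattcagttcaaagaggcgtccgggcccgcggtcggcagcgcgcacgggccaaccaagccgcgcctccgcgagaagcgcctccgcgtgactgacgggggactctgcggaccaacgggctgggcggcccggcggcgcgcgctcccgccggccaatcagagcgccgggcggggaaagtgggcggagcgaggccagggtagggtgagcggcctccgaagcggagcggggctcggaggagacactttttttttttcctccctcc
Ezh2 held TTTGGCGC at position 4 after the start, and Suz12 held TTTCCCGC at position -219. The Ezh1 window and the windows of Eed, Jarid2, Mtf2 and Kdm6a had no such string. An E2F-type string occurred in 2.26% of 32851 windows of the same length. The octamer ATGCAAAT, the string typically bound by Oct factors, occurred in 1.74% of them and in no window of the 7 members with an entry. A match describes letters and does not show binding, and no match says nothing of the factor.

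The libraries held 41665721 to 85102600 UMIs (unique molecular identifiers, each a count of 1 captured transcript). Of 11046 barcodes, 7096 were kept as cells, between 530 in cKO ESC and 1650 in cKO day 6. Pairs of libraries shared 0 to 2 barcodes. Levels are a gene's UMIs over all kept cells of a library, scaled to 1000000 UMIs (CPM), from tags at the 5′ end, and levels are compared within a gene, apart from the share of UMIs that Ezh1 gave beside Ezh2. With 1 library a group there are no replicates and no tests. The 95% intervals cover counting error and nothing else, and fewer cells of a type cannot be told apart from less RNA per cell in such sums. Pou2f1 itself measured 30.1, 28.3 and 30.9 CPM in the parental ESC, day 3 and day 6 libraries and 21.5, 12.6 and 16.0 CPM in the cKO libraries. The deleted part is not stated, so remaining tags are no measure of the completeness of deletion. The 8 naive pluripotency markers summed to 1634 and 1723 CPM in parental and cKO ESC and to 83.9 and 66.5 CPM at day 6, where 8 presomitic mesoderm and somite markers summed to 220.5 and 128 CPM. The titles of both ESC libraries share 1 number prefix and those of days 3 and 6 another, so the step from ESC to day 3 cannot be told apart from a change of that label.

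Ezh2, the main H3K27 methyltransferase of dividing cells, was the member that differed most by genotype at days 3 and 6, and the difference was widest at day 6. In ESC the ratios of Ezh1 (-0.52), Jarid2 (0.39) and Suz12 (-0.34) were wider. In parental cells it measured 208 CPM (interval 204 to 211) in ESC, 234 CPM (230 to 237) at day 3 and 269 CPM (265 to 273) at day 6. In cKO cells it measured 172 CPM, 151 CPM (149 to 154) and 120.3 CPM (118 to 123). Each parental library thus stood above each cKO library. The cKO level was lower at each later stage. The parental level was higher at each step on the CPM scale, but its step from day 3 to day 6 (0.20 on the log2 scale) was -0.03 under TMM and size-factor scaling. The log2 ratio of cKO over parental was -0.27 in ESC, -0.63 at day 3 and -1.16 at day 6, where the interval ran from -1.20 to -1.12. Ezh2 is on chromosome 6, whose other genes had median ratios of -0.15, -0.29 and -0.17 at these stages. The day 6 level of Ezh2 in cKO was 2.23-fold below the parental level. In ESC the ratio was -0.62 under a stricter cell filter (2000 genes or more, mitochondrial share up to 5%), which kept 457 of 1396 parental and 86 of 530 cKO cells.

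A gene is counted here as different between 2 libraries when it differed by at least 2-fold and reached 20 CPM in the higher library. By that rule 0 of the 7 members tested differed by genotype in ESC, where 2.17% of 5340 genes did. At day 3, 0 of 6 members differed, against 0.505% of 5148 genes. At day 6, 1 of 7 members, Ezh2, was lower in cKO, against 9.2% of 6173 genes. Ezh1 did not reach 20 CPM in any library, and Kdm6a missed it in both day 3 libraries. The median log2 ratio of the 8 members was -0.00 in ESC, -0.17 at day 3 and -0.18 at day 6. Over the members tested alone it was 0.06, -0.21 and -0.19, beside medians over all genes tested of -0.01, -0.05 and -0.01.

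**Figure D1:**
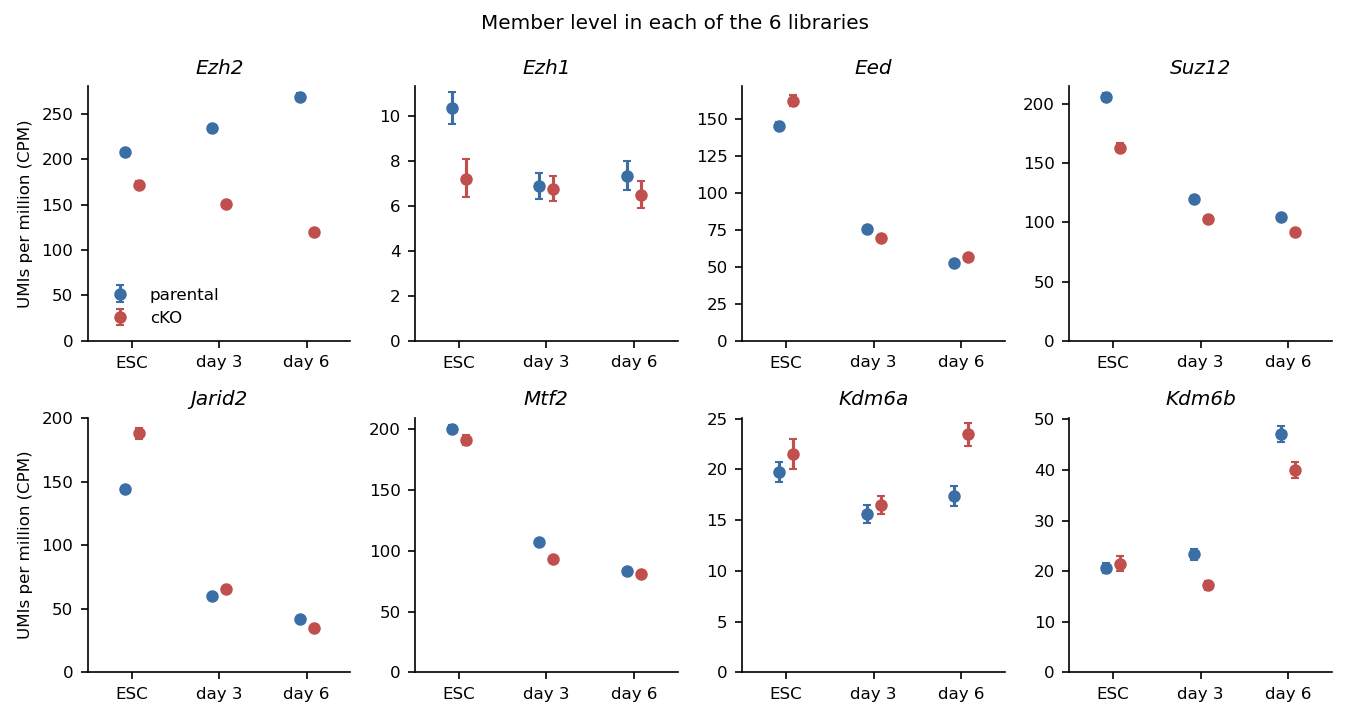
Level of each member (vertical axis, CPM, from 0) in the 6 libraries, ESC, day 3 and day 6 along the horizontal axis, blue for parental and red for cKO, with 95% counting intervals. Ezh2 separates by genotype, while Eed, Suz12, Jarid2 and Mtf2 are lower at day 3 than in ESC in both genotypes and Kdm6b is highest at day 6.

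Ezh1, the second methyltransferase, was a low gene throughout. It measured 10.3 CPM (9.65 to 11.1) in parental ESC, 6.88 at parental day 3 and 7.35 at parental day 6, and 7.22, 6.78 and 6.50 CPM in the cKO libraries at the same stages. Parental ESC stood above the rest, and the intervals of the other 5 libraries overlapped. Of the UMIs of both methyltransferase genes together, Ezh1 gave 4.75%, 2.86% and 2.66% in parental ESC, day 3 and day 6. In cKO it gave 4.03%, 4.29% and 5.13%. The exact Clopper-Pearson intervals of both genotypes were apart at day 3 (2.62% to 3.11% against 3.95% to 4.65%) and day 6 (2.44% to 2.90% against 4.67% to 5.61%). At both stages the intervals of the Ezh1 level itself overlapped between genotypes, and those of Ezh2 did not.

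Eed and Suz12, the other core subunits, were lower at day 3 than in ESC in both genotypes. Eed measured 146, 76.1 and 52.6 CPM in parental ESC, day 3 and day 6 and 163, 69.7 and 56.6 CPM in cKO. Its log2 ratio of day 3 over ESC was -0.94 in parental cells and -1.22 in cKO cells. Suz12 measured 206, 120 and 105 CPM in the parental series and 163, 103 and 91.7 CPM in the cKO series. Suz12 was lower in cKO at each stage, by less than 1.5-fold. Its log2 genotype ratios were -0.34, -0.22 and -0.19 in ESC, day 3 and day 6. The other genes of its chromosome, 11, had median ratios of -0.27, -0.20 and -0.31, so Suz12 stood close to them. The step of Suz12 from ESC to day 3 was -0.78 in parental and -0.66 in cKO cells on the log2 scale.

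Of the accessory subunits, Jarid2 had the wider spread over the stages. Jarid2 measured 144, 60.1 and 41.8 CPM in parental cells and 188, 65.8 and 34.9 CPM in cKO cells. From its highest to its lowest library, cKO ESC to cKO day 6, Jarid2 changed 5.38-fold, the widest range of the 8 members. In ESC it was the member that stood highest in cKO relative to parental, at a log2 ratio of 0.39 (0.34 to 0.43). At day 6 its ratio was -0.26. Mtf2 measured 200, 107 and 83.6 CPM in parental cells and 191, 92.8 and 80.9 CPM in cKO cells. At day 6 the interval of its genotype ratio held 0 (-0.10 to 0.01).

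From ESC to day 3, 1 of 6 members tested in parental cells was at least 2-fold lower, Jarid2, at -1.26 on the log2 scale. That compares with 14.2% of 5615 genes in either direction. In cKO cells 3 of 7 members were lower, Jarid2 (-1.52), Eed (-1.22) and Mtf2 (-1.04), against 18.3% of 5577 genes. Mtf2 lay inside the limit under TMM and size-factor scaling, with equal weight per cell and in the stricter cell filter. In parental cells Eed (-0.94) and Mtf2 (-0.90) lay just inside the 2-fold limit. The median log2 ratio of the 8 members was -0.69 in parental and -0.52 in cKO cells. Over the members tested alone it was -0.84 and -0.66, while the medians over all genes tested were 0.09 and 0.04. Both steps start from the ESC libraries, which also enter the genotype comparison. Without fibroblast-like cells, or within the middle range of chromosome score described below, Eed passed the limit in parental cells too.

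The demethylases differed less at that step, between -0.38 and 0.18 on the log2 scale. Kdm6b measured 20.6, 23.3 and 47.1 CPM in parental ESC, day 3 and day 6, and 21.5, 17.2 and 40.0 CPM in cKO. Both day 6 libraries stood above the 4 earlier ones. From day 3 to day 6, Kdm6b was the 1 member of 6 tested that was at least 2-fold higher in parental cells (log2 ratio 1.01, 0.93 to 1.10), where 18.6% of 6083 genes differed in either direction. It was also the 1 member of 7 higher in cKO cells (1.21, 1.12 to 1.31), beside 27.4% of 6026 genes. The parental value lies at the limit and fell below it under 5 other settings. Under TMM and size-factor scaling the median log2 ratio of all genes moved by -0.27 and -0.28 at this step in parental cells, and Kdm6b was then 0.79 and 0.78. In cKO cells the median moved by -0.31 and -0.30, Kdm6b was 0.94 under TMM scaling, and the 1 member past the limit was then Jarid2 (-1.18).

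Kdm6a, encoded on the X chromosome, was the steadiest member across libraries. It measured 19.7, 15.6 and 17.4 CPM in parental ESC, day 3 and day 6 and 21.5, 16.5 and 23.4 CPM in cKO cells. Its genotype ratio was 0.12 in ESC and 0.08 at day 3, with intervals that held 0, and 0.43 (0.32 to 0.54) at day 6. Uty, its Y-linked relative with little demethylase activity, differed more. It measured 10.6, 10.0 and 10.5 CPM in the parental libraries and 30.3, 21.8 and 28.1 CPM in the cKO libraries, 2.86-fold, 2.17-fold and 2.68-fold higher. The Y-linked genes Ddx3y and Eif2s3y were also higher in cKO, at 125 against 47.9 CPM and 66.8 against 33.3 CPM in ESC, and by 1.77 and 1.68 on the log2 scale at day 6. Kdm5d, the third Y-linked gene of the list, was low and went the other way, at 1.76, 1.41 and 4.00 CPM in the parental and 0.180, 0.535 and 0.849 CPM in the cKO libraries. The intervals of Kdm6a in cells with and without a Y-linked UMI, each cell thinned to 10000 UMIs, overlapped in each of the 6 libraries. In parental day 6 cells it measured 16.5 CPM in the 483 cells with such a UMI and 18.3 CPM in the 692 cells without one. Uty measured 12.2 and 9.25 CPM in the same cells, and 32.8 and 21.9 CPM in cKO ESC with and without one. The split thus separated cells by Y-linked content only in part, so the overlap says little of Kdm6a.

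Ezh2 at day 6 was examined by cluster, since the day 6 libraries differ in their cells. Cells of both genotypes were clustered together, and a cluster was named "-like" from a fixed marker list. A cluster held mostly by 1 library may mark that library rather than a cell type. The highest Ezh2 levels lay in clusters that were nearly all parental. A neural progenitor-like cluster (312 parental and 6 cKO cells) measured 462 CPM of Ezh2 in parental cells, and another with trunk Hox genes (141 and 14 cells) measured 354 CPM. A neuron-like cluster (130 and 7 cells) measured 324 CPM. At the other end, a surface epithelium-like cluster (73 parental and 382 cKO cells) held 74.1 CPM in its parental and 70.3 CPM in its cKO cells.

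**Figure D2:**
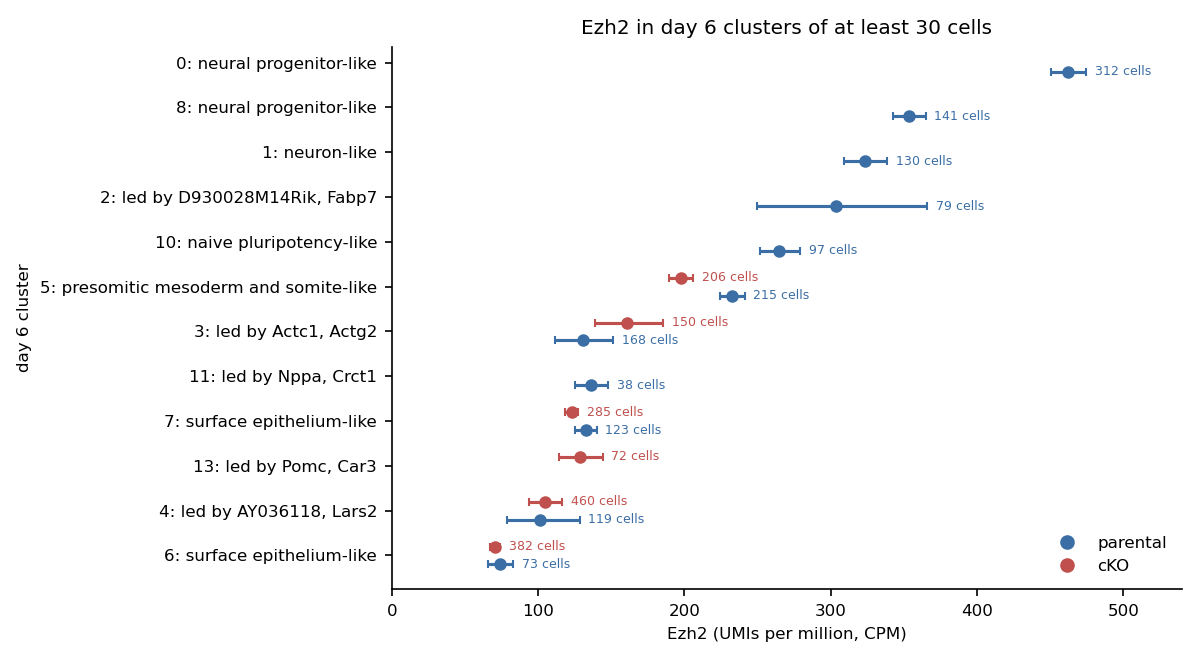
Ezh2 level (horizontal axis, CPM) in each day 6 cluster (vertical axis) for libraries with at least 30 cells in it, blue for parental and red for cKO, with 95% counting intervals and cell numbers. The 3 clusters at the top, between 324 and 462 CPM, have parental points alone, and the 5 clusters with both genotypes lie between 70.3 and 232 CPM.

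In the 5 day 6 clusters with at least 30 cells of each genotype, Ezh2 differed much less than over the whole libraries. In presomitic mesoderm and somite-like cells the parental level was 232 CPM and the cKO level 198 CPM, a log2 ratio of -0.23 (-0.31 to -0.15), while the cell cycle genes described below stood at -0.51. The levels in another surface epithelium-like cluster were 133 and 123 CPM (-0.11, interval -0.20 to -0.01). The other 3 clusters gave -0.08, 0.05 and 0.30 with intervals that held 0, and the last pair had a median depth of about 0.15 of their libraries' own. The median of the 5 was -0.08, and 0 of them reached 2-fold. Summed over these 5 clusters, whose shares differ between the libraries, the ratio was -0.51. In these sums 0 of the members were at least 2-fold different at day 6, beside 3.61% of all genes tested. This selection was added after the values were seen, and its parental cells lay unevenly over a chromosome score described below. Beside it, the 6 neural progenitor markers summed to 937 CPM in the parental and 31.9 CPM in the cKO day 6 library. Of these, 5 of 5 tested were at least 2-fold lower in cKO. Of the 7 neuron markers 4 of 5 tested were lower, and none of either list was at 0 in these 2 libraries. The share over all genes tested was 9.2% in either direction. Apart from Crabp1 (739 CPM parental, 24.8 CPM cKO), the genes counted as lower reached 20 CPM in the parental library alone. That limit set their direction, and these counts are not read as a result. Stmn2, which reached it in both libraries, was higher in cKO (248 against 194 CPM). The 8 surface epithelium markers summed to 2015 and 5401 CPM, with 6 of 6 tested higher in cKO. The part of these cells in the Ezh2 difference of whole libraries was not tested beyond the values within clusters.

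At the earlier stages Ezh2 varied within shared clusters as well. In ESC its ratio ran from -0.65 to 0.20 over 5 clusters, lowest in a surface epithelium-like cluster (151 CPM parental, 96.5 CPM cKO). At day 3 it was 0.04 in primitive streak and neuromesodermal-like cells, -0.24 in a cluster led by Stmn4 and Ltb, and -0.77 in a cluster led by Lgals3 and Prph. Ezh2 did not stand 2-fold apart in any of these 8 clusters. In the last of them the 21 cell cycle genes differed as well, by -0.45 on the log2 scale.

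Other members had their own distribution over clusters. Jarid2, Mtf2, Suz12 and Eed were highest at day 6 in a naive pluripotency-like cluster of 97 parental cells, at 102, 170, 169 and 77.8 CPM. The parental day 6 library as a whole measured 41.8, 83.6, 105 and 52.6 CPM for the same genes. Kdm6b was highest in the neuron-like cluster, at 78.1 CPM. Kdm6a ran from 13.9 to 30.4 CPM over the 11 parental ESC clusters. In parental ESC a fibroblast-like cluster of 125 cells was the lowest of 11 clusters for Ezh2 (41.8 CPM), Eed (48.0), Suz12 (48.0), Jarid2 (23.9) and Mtf2 (40.8). Its cell cycle genes summed to 568 CPM, against 3445 CPM in the whole library. The cKO ESC library held 3 such cells. The 9 fibroblast markers summed to 700 CPM in parental and 24.0 CPM in cKO ESC, with 1 at 0 in cKO. The 5 tested were all lower in cKO, beside 2.17% of all genes in either direction. They reached 20 CPM in the parental library alone, so that limit set their direction and the count is not read as a result. Dcn, below the limit, went the other way (0.385 CPM parental, 0.925 CPM cKO). Without the fibroblast-like cells 0 members differed by genotype in ESC, as with them, beside 1.27% of all genes tested. The ratio of Ezh2 was then -0.36.

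Over 47 sums of a cluster in a library, Jarid2 and Mtf2 rose and fell together (Pearson r 0.93 on log2 levels), as did Mtf2 and Suz12 (0.89) and Eed and Mtf2 (0.85). Ezh2 was correlated with Ezh1 at 0.03 and with Suz12 at 0.32, and Eed with Kdm6b at -0.45. Of 5232 genes, those most like Jarid2 were Tet1 (0.95), a DNA demethylating enzyme, and Atrx (0.94), a chromatin remodeller. Ezh2 was most like Hnrnpa2b1 (0.86), an RNA-binding protein encoded on the same chromosome, and Dars (0.85). Eed was most like Ubd (0.94) and Dhx16 (0.93), Suz12 like Mtf2 (0.89) and Fntb (0.87), and Mtf2 like Jarid2 (0.93) and Tet1 (0.93). For Ezh1 the nearest were Trim41 (0.70) and Atxn7l3 (0.69), for Kdm6a Chd8 (0.81) and Phf3 (0.81), and for Kdm6b Ube3a (0.87) and Cdip1 (0.86). The sums share 6 libraries, stages and depth, so these values are descriptions.

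Ezh2 followed the cell cycle genes in each library. The cells of each library were ranked by their share of UMIs from 21 replication and mitosis genes, none of them a member. In parental ESC, Ezh2 measured 267 CPM in the 25% of cells with the highest share and 112 CPM in the 25% with the lowest. At day 6 the same levels were 359 and 130 CPM in parental and 158 and 53.9 CPM in cKO cells. The log2 difference between the ranges was 1.26, 0.82 and 1.46 in parental ESC, day 3 and day 6. In cKO it was 1.32, 0.60 and 1.55. Ezh1 went from 0.13 in parental ESC to -0.68 in cKO day 6, below 0 in 5 of 6 libraries.

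The other members moved less along that ranking, except Jarid2 at cKO day 3, where it and Ezh2 both stood at 0.60. Mtf2 was higher in the highest range of each library, by 0.16 to 0.79 on the log2 scale. Suz12 lay between -0.05 and 0.57, and Kdm6b was lower in the highest range in 5 of 6 libraries, reaching -0.68 in cKO day 6. The cell cycle list as a whole summed to 3872 CPM in parental and 2327 CPM in cKO day 6 cells. Its median log2 ratio was -0.72, and 3 of 21 genes were at least 2-fold lower, Cenpf (-1.44), Aurkb (-1.36) and Top2a (-1.22), all mitotic genes. Over all genes tested the median was -0.01, and 9.2% differed in either direction. Within the highest range the genotype ratio of Ezh2 at day 6 was -1.19, and within the lowest it was -1.27. These ranges were set within each library and were not matched for cycling: the cell cycle genes summed to 6625 CPM in parental and 4627 CPM in cKO cells of the highest range, and to 908 and 247 CPM in the lowest. The part of cell cycle genes in the Ezh2 difference was not tested.

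**Figure D3:**
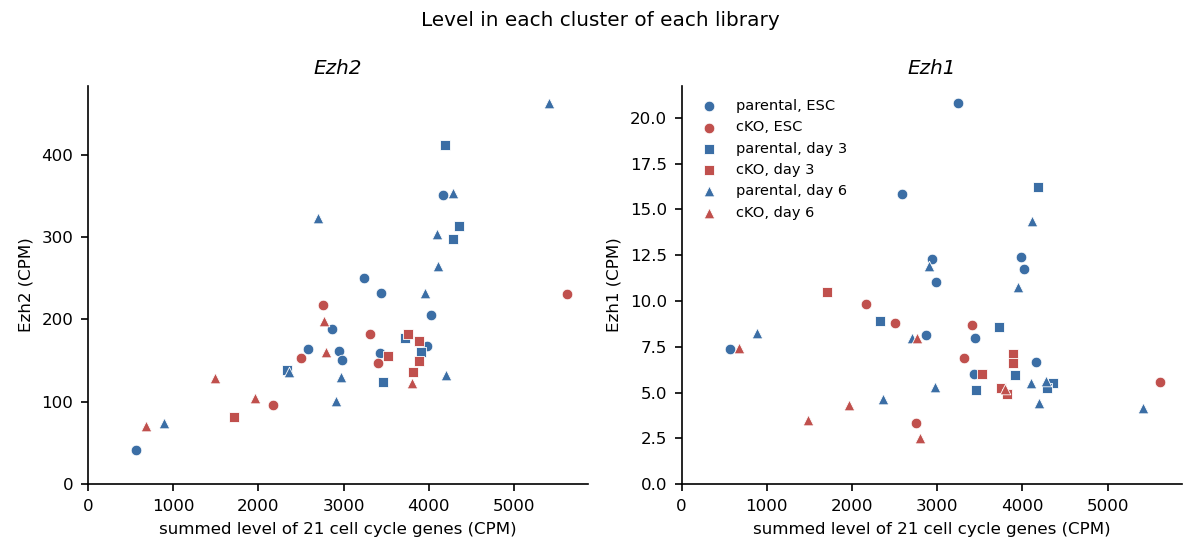
Level of Ezh2 (left) and Ezh1 (right) in CPM on the vertical axis against the summed level of 21 cell cycle genes on the horizontal axis. Each of 47 points is a cluster in a library, coloured by genotype and shaped by stage. Ezh2 runs from 41.8 CPM at the lowest cell cycle level to 462 CPM, while Ezh1 shows no such course.

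Members also differed among parental cells that differ in the share of UMIs from whole chromosomes. DNA content was not measured. Each cell with at least 10000 UMIs was given a score. It set the share of UMIs from chromosomes 1, 6 and 8 against that from chromosome 11. The score was relative to the median cKO cell of the stage and left out the members' own UMIs. It was taken over from earlier work on these data. Parental cells spread widely along the score. Of scored cells in ESC, 28.2% lay above 0.25 (chromosomes 1, 6 and 8 high) and 43.2% below the negative limit (chromosome 11 high). At day 3 these shares were 54.5% and 32.6%, and at day 6 they were 35.0% and 48.6%. In cKO libraries 91.2% to 95.5% of scored cells lay between the limits. These are ranges of 1 score, and 83 of 1256 scored parental ESC lay within 0.05 of a limit.

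Ezh2 is encoded on chromosome 6 (chr6:47530139-47595341, mm10). In parental cells with chromosomes 1, 6 and 8 high it measured 327 CPM in ESC, 300.5 CPM at day 3 and 419 CPM at day 6. In those with chromosome 11 high it measured 170 CPM, 159 CPM and 204 CPM. The first range stood above the second by 0.95, 0.92 and 1.04 on the log2 scale. In ESC and at day 3 the ranges lay largely in different clusters: 292 of the 354 ESC of the first range and 272 of the 462 cells at day 3 were in single clusters with 0 cells of the second. At day 6 the ranges were spread unevenly over clusters as well. The larger neural progenitor-like cluster held 214 cells of the first range and 67 of the second. The presomitic mesoderm and somite-like cluster held 6 and 177. The median gene of chromosome 6 differed by 0.50, 0.47 and 0.44 between the same ranges. Ezh2 thus stood 0.45, 0.45 and 0.60 beyond its chromosome. In ESC 29 of 261 other genes of chromosome 6 reached its difference, at day 3 13 of 269, and at day 6 24 of 332.

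Suz12 (chr11:79993106-80034123) and Ezh1 (chr11:101191115-101226463) went the other way. Suz12 measured 131 CPM in ESC with chromosomes 1, 6 and 8 high and 282 CPM in those with chromosome 11 high, a log2 difference of -1.11 beside a median of -0.55 for chromosome 11. At day 3 its levels were 92.0 and 167 CPM, and at day 6 they were 85.9 and 119 CPM, a difference of -0.47 that was smaller than the chromosome's median of -0.58. Ezh1 differed by -0.92 in ESC, by -0.58 at day 3 (5.80 and 8.67 CPM) and by -0.89 at day 6 (4.78 and 8.85 CPM). The chromosome's medians were -0.55, -0.62 and -0.58, so at day 3 Ezh1 stood near the median gene of its chromosome. Kdm6b, also on chromosome 11 (chr11:69398508-69413675), differed by -0.01 in ESC, where 21 of 489 other genes of that chromosome were as high or higher. At day 6 Kdm6b measured 35.9 and 51.2 CPM, a difference of -0.51 beside the chromosome's median of -0.58. Kdm6a differed by less than 0.20 between the ranges at each stage.

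Members on chromosomes outside the score differed too. Eed, on chromosome 7, measured 86.5 CPM with chromosomes 1, 6 and 8 high and 63.3 CPM with chromosome 11 high at day 3, a difference of 0.45 that 14 of 372 other genes of its chromosome reached. At day 6 the difference was 0.42 for Eed, 0.48 for Jarid2 and 0.27 for Mtf2. Of the other genes of their chromosomes, 43 of 435, 31 of 226 and 93 of 380 were as high or higher. In ESC it was -0.06 for Eed, -0.28 for Jarid2 and -0.24 for Mtf2, where 179 of 391, 24 of 194 and 48 of 340 were as low or lower. At day 3 it was 0.03 for Jarid2 and 0.09 for Mtf2, where 79 of 191 and 85 of 331 were as high or higher.

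**Figure D4:**
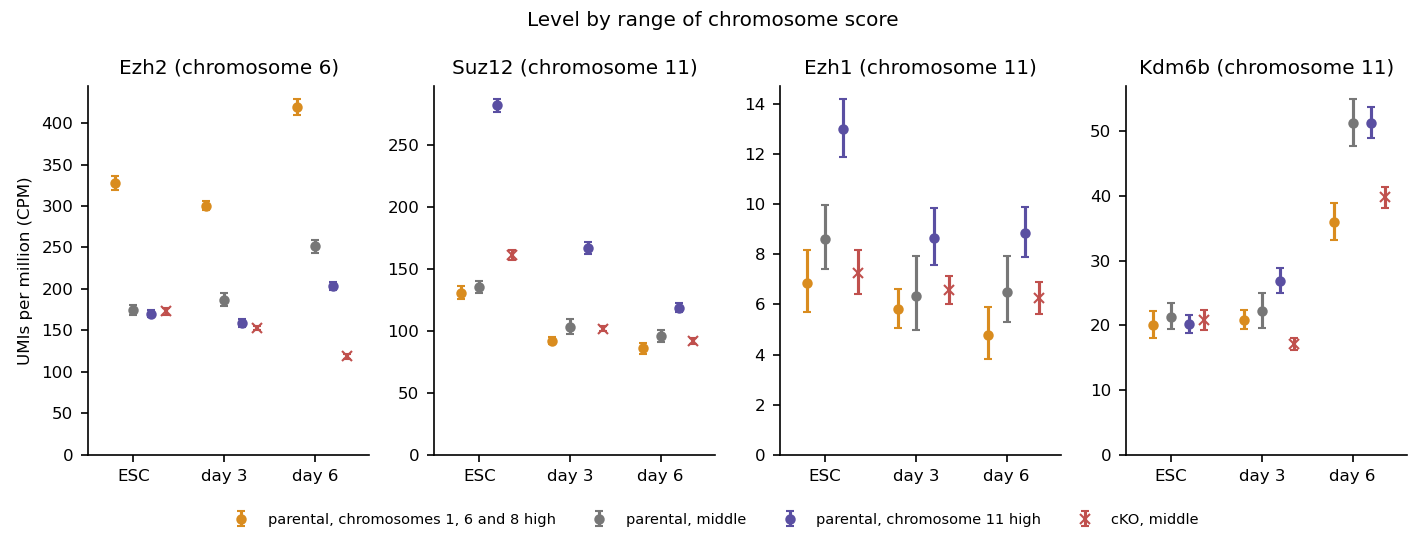
Levels of Ezh2, Suz12, Ezh1 and Kdm6b (vertical axes, CPM, from 0) by stage in 3 ranges of parental cells (circles) and in cKO cells of the middle range (crosses), with 95% counting intervals. Ezh2 is highest where chromosomes 1, 6 and 8 are high (327, 300.5 and 419 CPM), and Suz12 and Ezh1 are highest where chromosome 11 is high.

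The same order held for Ezh2 and Suz12 inside the 3 clusters of parental day 6 cells that had at least 30 cells in each of these ranges. In the larger neural progenitor-like cluster, Ezh2 measured 517 CPM (502 to 533) in 214 cells with chromosomes 1, 6 and 8 high and 324 CPM (304 to 345) in 67 cells with chromosome 11 high. Suz12 measured 78.5 and 127 CPM in the same cells. In the naive pluripotency-like cluster, Ezh2 measured 354 and 182 CPM and Suz12 146 and 210 CPM. At day 3 a cluster led by Lgals3 and Prph had at least 30 cells in both ranges, and Ezh2 measured 186 and 105 CPM and Suz12 65.7 and 144 CPM there. No ESC cluster had as many cells in both. The cell cycle genes were higher in the first range too, at 5600 against 4791 CPM in the neural progenitor-like cluster and 2651 against 2157 CPM in the day 3 cluster. Their part in the difference was not tested.

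Within the middle range, the genotype ratios of several members in ESC moved. Ezh2 went from -0.27 to -0.01 (interval -0.07 to 0.05), Suz12 from -0.34 to 0.25 and Mtf2 from -0.07 to 0.19, while Jarid2 went from 0.39 to 0.50. At day 3 Ezh2 went from -0.63 to -0.30 and Suz12 from -0.22 to -0.02. At day 6 Ezh2 stayed near its value over all cells, at -1.08 (251 CPM parental, 119 CPM cKO). The selections thus differed by stage. At day 6 the ratio of Ezh2 was smaller within shared clusters and not within the middle range. In each of these shared clusters more scored parental cells had chromosome 11 high than chromosomes 1, 6 and 8 high. In the presomitic mesoderm and somite-like cluster they were 177 against 6. Parental Ezh2 was lower with chromosome 11 high, so cluster and chromosome range cannot be told apart in that comparison. The middle range held 360, 109 and 193 parental cells at the 3 stages, among them 73 of the 125 fibroblast-like cells of ESC, in which Ezh2 measured 9.95 CPM.

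**Figure D5:**
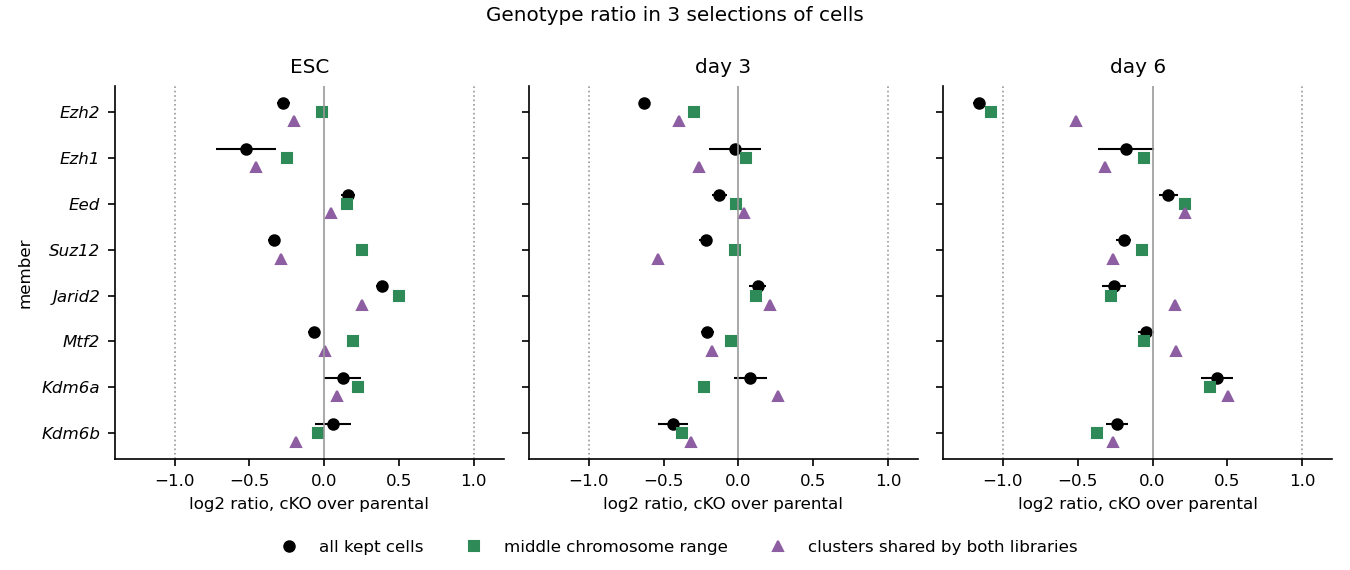
Log2 ratio of cKO over parental (horizontal axis) for each member (vertical axis) at ESC, day 3 and day 6, over all kept cells (circles, with 95% counting intervals), cells of the middle chromosome range (squares) and clusters with at least 30 cells in both libraries (triangles). Dotted lines mark 2-fold, and Ezh2 at day 6 lies beyond it in the first 2 selections (-1.16 and -1.08) but not in the third (-0.51).

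Around the members, other genes of the pathway were taken from lists. Of the other PRC2 subunits, 0 of 4 tested differed by genotype in ESC and at day 3. At day 6, 1 of 5 was lower in cKO, Lcorl (10.1 against 22.3 CPM), a PRC2-binding protein. Over all genes tested 2.17%, 0.505% and 9.2% differed by genotype in ESC, at day 3 and at day 6. From ESC to day 3, Epop, an accessory subunit of the same PRC2 form as Mtf2, went from 259.7 to 113 CPM in parental and from 248 to 87.6 CPM in cKO cells. Aebp2, found with Jarid2 in the other form, went from 44.2 to 26.8 CPM in parental and from 59.5 to 21.3 CPM in cKO cells. In that step 1 of 4 tested were lower in parental and 2 of 4 in cKO cells, beside 14.2% and 18.3% of all genes in either direction.

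Polycomb repressive complex 1 (PRC1), which ubiquitinates histone H2A and binds the PRC2 mark, was described from 24 genes. By genotype, 1 of 9 tested PRC1 genes differed in ESC (Pcgf5, 21.5 CPM in cKO against 10.5 CPM), 0 of 11 at day 3 and 0 of 12 at day 6. By stage, 3 of 10 were higher from ESC to day 3 in parental cells, and 4 of 12 were higher and 3 lower in cKO cells. From day 3 to day 6, 3 of 13 were higher and 3 lower in parental cells, and 3 of 14 were higher and 4 lower in cKO cells. All genes also differed more often by stage (14.2% to 27.4%) than by genotype (0.505% to 9.2%). From ESC to day 3, Phc1 and Yaf2 were 1.10 and 1.35 higher in parental cells and 1.11 and 1.17 higher in cKO cells. From day 3 to day 6 Phc1 fell by 2.59 and 3.34, and Pcgf5 was 1.31 and 1.98 higher, in parental and cKO cells. Cbx7, a reader of the mark in ESC, went from 37.8 to 11.7 CPM in parental and from 39.0 to 14.0 CPM in cKO cells at that step. Pcgf6 went from 91.3 to 42.6 CPM in parental and from 92.2 to 31.3 CPM in cKO cells.

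Of the partners of Kdm6a and the H3K4 methyltransferases, Uty was the 1 gene counted as different by genotype at each stage, of 11, 8 and 8 tested. The genotype shares over all genes tested were 2.17% in ESC, 0.505% at day 3 and 9.2% at day 6. Kmt2c, a methyltransferase of the complex that holds Kdm6a, fell by 1.34 from ESC to day 3 in parental cells and by 1.53 in cKO cells. Of the H3K27 acetyltransferases and BAP1 complex genes, 0 of 5 to 7 tested differed in each of the 7 comparisons. Beside them the shares over all genes tested ran from 0.505% to 27.4%, and with so few genes these counts are not read as a result. Of 18 lineage genes known as Polycomb targets in ESC, 0 of 1 tested differed by genotype in ESC and 1 of 3 at day 3 (Cdx2, 8.84 against 26.6 CPM). At day 6 the largest differences counted were in Pax6 (0.351 CPM in cKO against 38.0 CPM), Sox1 (0.879 against 29.8 CPM) and Hoxb9 (6.75 against 54.3 CPM). Only 6 of the 18 reached 20 CPM at day 6, 5 of them in the parental library alone, so their direction was largely set by that limit and their count is not read as a result. Below the limit, T (17.3 against 4.68 CPM), Tfap2a (16.6 against 2.90 CPM) and Sox17 (8.93 against 2.58 CPM) were higher in cKO. These 3 were named after their values were seen. Pax6 and Sox1 are also on the neural progenitor marker list, and 20 of 1650 cKO day 6 cells lay in the neural progenitor-like clusters. No chromatin mark was measured here.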

How the data were processed

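Libraries of 6 groups, 1 each, were prepared with a 10x Genomics 5′ kit after trypsin harvest, per the labels' protocols. The authors ran Cell Ranger on mm10, per the submitters' processing notes, and the software version was 3.1.0, per the file headers. The deposited values are raw UMI counts per gene and barcode. How reads on the opposite strand were counted is not given in the sources used here, so UMIs of Ezh2, Suz12, Mtf2 and Kdm6b could include some from genes that overlap them on the other strand.

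A barcode was kept when it had 1000 or more genes and mitochondrial UMIs did not exceed 10%. Doublets stayed in: Scrublet marked between 1 and 12 cells per library, too few at day 6 to count as working, and leaving them out was an alternative. Counts were summed per library. CPM carry exact Poisson, shares Clopper-Pearson and ratios exact conditional binomial 95% intervals. The procedure was tested on simulated data with counting error only. Such data hold no other difference between libraries, so the test checks the counting and not the comparisons of genotype or stage. Cells of a stage were clustered in scanpy 1.11.5 (2000 variable genes, 30 components, 15 neighbours, Leiden resolution 0.8), and at least 3 markers were needed for a name. A total of 31011 of 31053 gene identifiers matched GENCODE on the same build. Positions are from it.

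The members, gene lists, score and E2F-type strings were chosen with earlier results of these data known, and lists are described by counts and medians without a test. The text names the 8 members, up to 3 genes of each list with the largest ratios among those counted as different, and the 2 genes most like each member over genes of at least 20 CPM (log2 of CPM with a pseudocount of 1). Alternatives changed the cell filter, scaling (TMM from edgeR 4.0.16, median-of-ratios size factors from DESeq2 1.42.0, library totals without mitochondrial and ribosomal protein genes, equal weight per cell), the limits, the clusters and the score limit. Analyses ran in Python 3.11.15 and R 4.3.3.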

Additional observations from a re-analysis of the deposited data

How the results depend on the processing

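No paired analysis was possible because each group held 1 library. Leaving out clusters of low depth, and keeping clusters with at least 30 cells in both libraries, were chosen after seeing the data. Of 728 values under other settings, 523 stayed within the counting interval (or, for counts, within 1.5 times) and 205 moved further.

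The number of members at least 2-fold different from day 3 to day 6 in parental cells was 1, and it was 0 with a stricter cell filter (at least 2000 genes, at most 5% mitochondrial UMIs), TMM factors, median-of-ratios size factors, totals without mitochondrial and ribosomal protein genes, and equal weight per cell. Under these settings 17.6% to 19.0% of all genes tested differed. In cKO cells the number of members was 1 at that step. It was 2 (Jarid2, Kdm6b) with the stricter cell filter, with totals without mitochondrial and ribosomal protein genes and at a 1.5-fold limit. Of all genes tested, 25.9%, 27.1% and 50.6% differed there. At a 1.5-fold limit 1 member (Ezh2) differed by genotype at day 3, beside 2.84% of all genes tested. At the same limit 4 members differed from ESC to day 3 in parental cells, beside 31.7% of all genes tested. At the 2-fold limit, the number of members from ESC to day 3 in parental cells rose from 1 to 2 (Eed, Jarid2) in 2 selections. These were cells without the fibroblast-like ones, beside 14.0% of all genes tested, and the middle chromosome range, beside 17.8%. By genotype at day 6, 0 members differed in clusters with at least 30 cells in both libraries, beside 3.61% of all genes tested. The cause was not tested.

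The ratio of Ezh2 by genotype at day 6 ran from -1.20 to -0.51, at day 3 from -0.68 to -0.30 and in ESC from -0.62 to -0.01. The value was below 0 in all 11 settings at each stage. In ESC the interval held 0 in the middle chromosome range (-0.07 to 0.05). Within single shared clusters the ratio reached 0.20 in ESC, 0.04 at day 3 and 0.30 at day 6. Suz12 and Mtf2 in ESC were 0.25 and 0.19 in the middle chromosome range, above 0, and Mtf2 at day 6 reached 0.16 in the shared clusters. That range of parental ESC held 73 of the 125 fibroblast-like cells, whose cluster was the lowest of 11 for both genes. Their part in these ratios was not tested.

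Over all genes, the numbers at least 2-fold different by genotype were 116, 26 and 568 in ESC, day 3 and day 6. They were 374, 76 and 1247 with a minimum of 5 CPM, 4875, 3500 and 6096 with none, 361, 146 and 1410 at 1.5-fold, and 34, 51 and 215 in shared clusters. In ESC the number was 67 without fibroblast-like cells and 327 in the middle range, where day 3 gave 11. By stage they were 796 and 1132 in parental and 1020 and 1652 in cKO cells, and 1745, 2388, 2068 and 3025 with a minimum of 5 CPM, 7613, 8317, 7860 and 9141 with none, and 1778, 2346, 2156 and 3048 at 1.5-fold. From day 3 to day 6, 74.5% of them were higher in parental and 74.1% in cKO cells, against 53.3% and 51.6% with TMM factors and 52.3% and 52.4% with size factors. By genotype 46.2% were higher in cKO at day 3, against 63.0% and 60.7%, and 55.3% at day 6, against 66.1% with size factors. In ESC 39.7% were higher in cKO, and the balance turned with the cells chosen: 74.2% with the stricter cell filter, 74.6% without fibroblast-like cells and 12.2% in the middle range. With no minimum it was 66.7%. At day 3 TMM and size factors moved the median by 0.11 and 0.10.

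With 1 library a group, no value carries replicate error. Ezh1 gave 281 to 806 UMIs a library, which limits its precision.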
